A study of Mus musculus with 9 samples.

Results

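A set of 10 genes of hepatocyte cell-cell junctions were followed in mouse liver injured with acetaminophen (APAP), a drug that in overdose destroys the hepatocytes around the central vein. They were chosen by symbol from the 16857 genes of the deposited table, all of them were found, and all 10 passed the filter on low values. They are the cadherins Cdh1 and Cdh2 and the catenin Ctnnb1 of adherens junctions, the connexins Gjb1 and Gjb2 of gap junctions, and the claudins Cldn1, Cldn2 and Cldn3, occludin (Ocln) and ZO-1 (Tjp1) of tight junctions. Cdh1 was singled out with its values in these libraries already known, so its levels are a description with no test, and counts of tested genes below are over the other 9. The other members and the further gene lists were also chosen with earlier results of these data known. Their counts beside the shares of all genes are therefore descriptive.

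All 9 liver libraries came from mice injected with APAP. In the labels, 3 libraries were wild type and given saline, 2 were wild type and given leonurine (Leo in the labels, the alkaloid SCM-198 of the series title), 2 were Adipor2 knockout and given saline, and 2 were Adipor2 knockout and given leonurine. The series title concerns the receptor AdipoR2 as a target of the compound, so the comparisons ask how leonurine changed injured liver with and without that gene. The strain, sex, age, dose, timing and design of the knockout allele are not stated in the labels, and the labels do not say that the libraries came from separate animals, so the p-values measure the spread between these libraries, which may be technical.

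Adipor2 had 140.8, 125.8 and 135.3 FPKM (fragments scaled to transcript length and library size) in wild-type saline and 78.5 and 88.2 FPKM in wild-type leonurine. It had 70.1 and 76.0 FPKM in knockout saline and 75.7 and 85.0 FPKM in knockout leonurine. The knockout libraries were 0.53 lower than the wild type on the log2(FPKM + 1) scale, which did not pass an exact two-sided permutation test over 126 splits (p = 0.0556, the smallest possible p being 0.00794). That test pools saline and leonurine libraries. Within saline both labelled knockouts were below all 3 wild types (log2 difference of -0.87 ± 0.15, limma, adjusted p = 0.107), and under leonurine the genotypes overlapped (-0.05). Adipor2 itself fell by 0.68 ± 0.15 with leonurine in wild type (limma, adjusted p = 0.0345), a call that ended without any 1 of the wild-type saline replicates 1 (0.105), 2 (0.107) and 3 (0.130) or leonurine replicates 1 (0.0563) and 2 (0.0815). The transcript was still present in all 4 libraries labelled knockout, which are called labelled knockouts here. Another sign set the 2 leonurine libraries of the labelled knockouts apart. They held 0 and 2 fragments of the Y-linked genes Ddx3y, Eif2s3y, Kdm5d and Uty, against 4154 to 5275 in the other 7 libraries. Whatever separates these 2 libraries on the Y-linked genes cannot be told apart from leonurine in the labelled knockouts. On the first principal component (38.3% of the variance) wild-type leonurine replicates 1 and 2 lay at 26.4 and 52.2. At the other end, labelled knockout leonurine replicates 1 and 2 lay at -35.0 and -18.1. The saline libraries of both genotypes lay between -10.4 and -0.781. Library totals ran from 35316653 to 38996734 fragments. The hepatocyte markers summed to 49622 to 86796 FPKM over the 9 libraries.

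Adherens junctions hold neighbouring hepatocytes together through cadherins, whose tails bind beta-catenin and through it the actin cytoskeleton. Tight junctions, built from claudins and occludin on a ZO-1 scaffold, seal the bile canaliculus from the blood side. Gap junctions, built in hepatocytes from connexin 32 (Gjb1) and connexin 26 (Gjb2), let small molecules and ions pass between cells. In the mouse liver lobule Cdh1 is known as a periportal hepatocyte protein and is also made by bile duct cells, while Cdh2 is found across the lobule.

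The promoters of the 3 members that passed a test in at least 1 comparison, Ocln, Gjb1 and Cldn2, are shown here because these genes carry the tested results. Each window runs from 250 bases before the start of a transcript to 30 bases after it, from RefSeq on build GRCm38.p6, read on the strand of the gene. Capitals mark CAGGTG, the E-box letters bound by the Snai and Zeb repressors that are known from work on the Cdh1 promoter. Ocln lies on the minus strand and its window is chr13:100552689-100552968. Gjb1 and Cldn2 lie on the plus strand of the X chromosome, with windows chrX:101376126-101376405 and chrX:139800558-139800837.
Ocln: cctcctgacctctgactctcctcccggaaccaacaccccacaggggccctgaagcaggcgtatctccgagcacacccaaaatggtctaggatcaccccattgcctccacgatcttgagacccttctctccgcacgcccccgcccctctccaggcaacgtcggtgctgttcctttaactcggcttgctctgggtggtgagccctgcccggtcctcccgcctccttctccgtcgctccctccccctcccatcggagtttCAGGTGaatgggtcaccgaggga
Gjb1: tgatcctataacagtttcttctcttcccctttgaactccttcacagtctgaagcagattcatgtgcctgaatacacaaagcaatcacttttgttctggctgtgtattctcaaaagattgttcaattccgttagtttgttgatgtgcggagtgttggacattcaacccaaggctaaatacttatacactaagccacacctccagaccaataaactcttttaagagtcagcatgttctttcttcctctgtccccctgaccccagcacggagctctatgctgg
Cldn2: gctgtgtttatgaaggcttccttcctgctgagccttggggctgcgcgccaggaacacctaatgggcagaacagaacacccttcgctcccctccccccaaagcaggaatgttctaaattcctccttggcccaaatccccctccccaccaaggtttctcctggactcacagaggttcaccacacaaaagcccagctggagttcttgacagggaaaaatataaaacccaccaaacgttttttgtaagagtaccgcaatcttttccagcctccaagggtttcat
The Ocln window holds CAGGTG at base 258, counted from the first base printed, and the Gjb1 and Cldn2 windows shown hold it on neither strand. Ocln has 2 windows and Gjb1 has 4, of which 1 each is printed. The other Ocln window holds CAGGTG at bases 38 and 183, the first being the site printed here. Of the Gjb1 windows not printed, 1 (chrX:101383482-101383761) holds it at base 83. Windows were matched for 8 of the 10 members, with 13 windows in all because some genes have several starts, and overlapping windows of 1 gene share bases. Of these, 4 windows in 3 members (Ocln, Gjb2 and Gjb1) held CAGGTG or its reverse complement CACCTG, against 6259 of 32851 promoter windows of the same length (19.1%). A match is a run of letters, not a shown binding site.

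In RefSeq on GRCm38.p6, the members are spread over the genome. Cdh1 is on chromosome 8 (106603350 to 106670247), Cdh2 on 18, Ctnnb1 on 9 (120933400 to 120960507) and Tjp1 on 7 (65296165 to 65527850). Ocln is on chromosome 13 (100496504 to 100552718), Gjb2 on 14 (57098602 to 57104702), Cldn1 on 16 (26356645 to 26371839) and Cldn3 on 5 (134986214 to 134987476). Gjb1 (101376376 to 101385629) and Cldn2 (139800808 to 139811386) are both on X. By their mean over the 9 libraries, the connexin Gjb1 was highest at 275.7 FPKM, followed by Gjb2 at 123.3 and Ctnnb1 at 66.0. Cldn3 (37.0 FPKM), Cldn2 (33.7) and Cldn1 (15.0) came next, and Cdh2 (10.4), Cdh1 (7.35), Tjp1 (6.74) and Ocln (3.44) were lowest. The levels of Cldn3 (26.8 to 50.9 FPKM) and Cldn2 (25.7 to 49.4) overlapped over the libraries, as did those of Cdh2, Cdh1 and Tjp1, so the order among these neighbours is within their spread. Cdh1 varied most, with a ratio of 17.0 between its highest and lowest library, against 2.91 for Ocln, 2.06 for Cdh2 and 1.35 to 1.96 for the other 7.

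**Figure D1:**
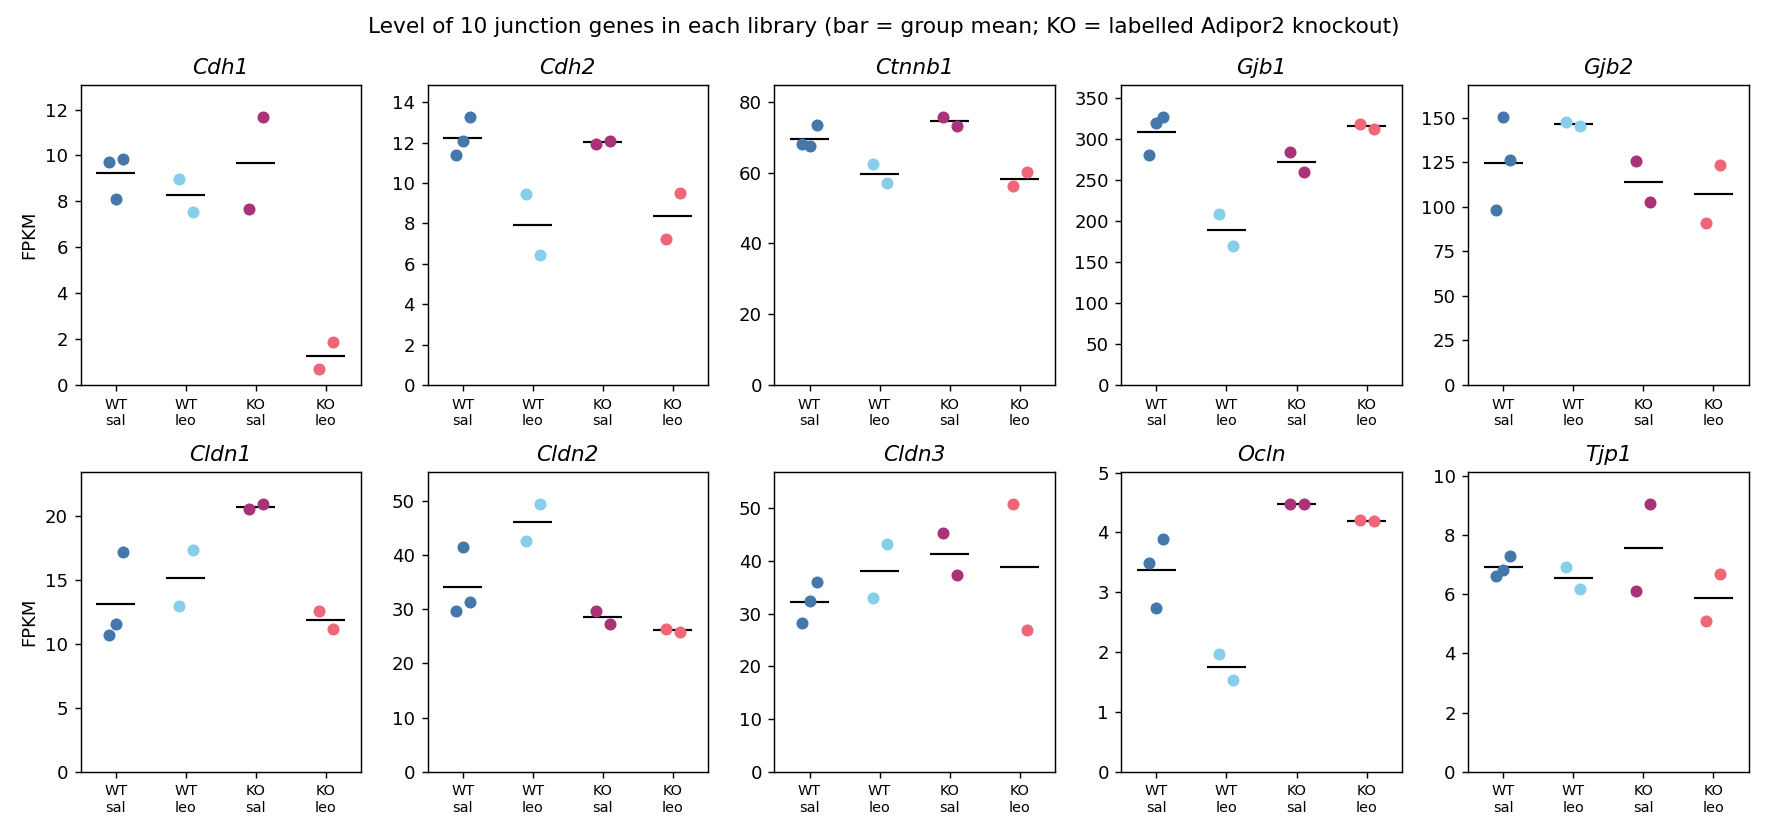
Level of each junction gene in every library, in FPKM on a linear axis from 0, with 1 point per library, a bar at each group mean and groups arranged by genotype and treatment (WT wild type, KO labelled knockout, sal saline, leo leonurine). Cdh1 sits between 7.55 and 11.7 FPKM in 7 libraries and at 0.688 and 1.88 FPKM in the labelled knockouts given leonurine.

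Among the adherens junction genes, Cdh1 (E-cadherin) had 9.72, 8.10 and 9.87 FPKM in wild-type saline and 8.97 and 7.55 FPKM in wild-type leonurine. It had 7.68 and 11.7 FPKM in labelled knockout saline, and 0.688 and 1.88 FPKM in labelled knockout leonurine. Both libraries of that last group were below all the other 7, and they still held 113 and 310 fragments of the gene, so the low values were not at the limit of depth. On the log2(FPKM + 1) scale Cdh1 was 2.25 ± 0.26 (SE) lower with leonurine than with saline in the labelled knockouts (mean 1.28 against 9.67 FPKM, or 13.3%). The level was 2.07 ± 0.26 lower than in wild type under leonurine (15.5% of the wild-type mean). In wild type leonurine and saline overlapped (log2 difference of -0.14 ± 0.24), as did the genotypes under saline (0.04 ± 0.24). The leonurine response differed by -2.11 ± 0.36 between the genotypes. The values for the labelled knockouts rest on the 2 libraries without Y-linked transcripts, and the part of that in the result was not tested. With replicate 1 of the labelled knockout leonurine group left out, the difference from saline was -1.87, and with replicate 2 left out it was -2.63. In bulk liver, fewer cells of a type and less RNA per cell cannot be told apart.

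Cdh2 (N-cadherin), the other classical cadherin of hepatocytes, had 11.4, 12.1 and 13.3 FPKM in wild-type saline, 9.44 and 6.43 in wild-type leonurine, 12.0 and 12.1 in labelled knockout saline and 7.21 and 9.52 in labelled knockout leonurine. The leonurine libraries were below the saline libraries in both genotypes. Over all genes these groups did not overlap, in either direction, for 47% in wild type and 49.4% in the labelled knockouts. Neither contrast passed the limma test, with a log2 difference of -0.59 ± 0.18 in wild type (adjusted p = 0.0845) and -0.49 ± 0.20 in the labelled knockouts (adjusted p = 0.193). Without wild-type leonurine replicate 1 the difference in wild type was -0.83 and passed (adjusted p = 0.0238). The ratio of Cdh1 to Cdh2 was 0.642 to 1.17 in 7 libraries and 0.0954 and 0.197 in the labelled knockouts given leonurine.

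Ctnnb1 (beta-catenin), which links cadherins to the cytoskeleton and also carries Wnt signals, had 68.0, 67.5 and 73.4 FPKM in wild-type saline, 62.4 and 57.0 in wild-type leonurine, 75.7 and 73.3 in labelled knockout saline and 56.1 and 60.2 in labelled knockout leonurine. Its leonurine libraries were again below the saline libraries in both genotypes, beside the same shares of all genes. The log2 difference was -0.22 in wild type (adjusted p = 0.389) and -0.35 ± 0.16 in the labelled knockouts (adjusted p = 0.223), and neither passed the test by limma.

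Gap junctions were represented by a pair of connexins. Gjb1, the main hepatocyte connexin, had 280.4, 320.2 and 327.0 FPKM in wild-type saline and 208.3 and 169.9 FPKM in wild-type leonurine. The labelled knockouts had 284.7 and 259.5 FPKM with saline and 319.2 and 311.9 FPKM with leonurine. The 2 wild-type leonurine libraries were the lowest of the 9. Gjb2, which can share channels with Gjb1, had 98.0, 150.3 and 126.0 FPKM in wild-type saline, 147.6 and 145.2 in wild-type leonurine, 125.5 and 102.7 in labelled knockout saline and 90.6 and 123.4 in labelled knockout leonurine. Its groups overlapped in wild type and in the labelled knockouts, and it passed no test (lowest adjusted p by limma 0.246). The ratio of Gjb1 to Gjb2 was 1.41 and 1.17 in wild-type leonurine and 2.13 to 3.52 in the other 7 libraries.

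Among the claudins, Cldn2, which forms a cation-permeable pore, had 29.7, 41.5 and 31.3 FPKM in wild-type saline and 42.6 and 49.4 FPKM in wild-type leonurine. The labelled knockouts had 29.7 and 27.3 FPKM with saline and 26.4 and 25.7 FPKM with leonurine, the last pair being the lowest of the 9. Cldn1, a sealing claudin, had 10.7, 11.5 and 17.1 FPKM in wild-type saline, 13.0 and 17.3 in wild-type leonurine, 20.5 and 20.9 in labelled knockout saline and 12.5 and 11.2 in labelled knockout leonurine. Its 2 highest libraries were the labelled knockouts given saline. Cldn3, another sealing claudin, had 28.2, 32.4 and 36.1 FPKM in wild-type saline, 33.0 and 43.3 in wild-type leonurine, 45.3 and 37.3 in labelled knockout saline and 50.9 and 26.8 in labelled knockout leonurine, where the 2 libraries were its highest and its lowest. The ratio of Cldn2 to Cldn3 was 0.866 to 1.29 in wild type and 0.519 to 0.959 in the labelled knockouts. The ratio of Cldn2 to Cldn1 was 1.83 to 3.61 in wild type, 1.45 and 1.31 in labelled knockout saline and 2.11 and 2.30 in labelled knockout leonurine.

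Ocln, a strand protein of tight junctions, had 3.49, 2.73 and 3.89 FPKM in wild-type saline and 1.97 and 1.54 FPKM in wild-type leonurine. The labelled knockouts had 4.48 and 4.48 FPKM with saline and 4.21 and 4.19 FPKM with leonurine. The wild-type leonurine libraries were the lowest 2 of the 9, on 322 and 254 fragments, and the 4 labelled knockouts the highest, on 659 to 688. Tjp1, the scaffold that ties these strands to actin, had 6.60, 6.82 and 7.29 FPKM in wild-type saline, 6.90 and 6.17 in wild-type leonurine, 6.10 and 9.05 in labelled knockout saline and 5.09 and 6.68 in labelled knockout leonurine. Its groups overlapped in all 4 contrasts of groups, and it passed no test (lowest adjusted p by limma 0.365).

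**Figure D2:**
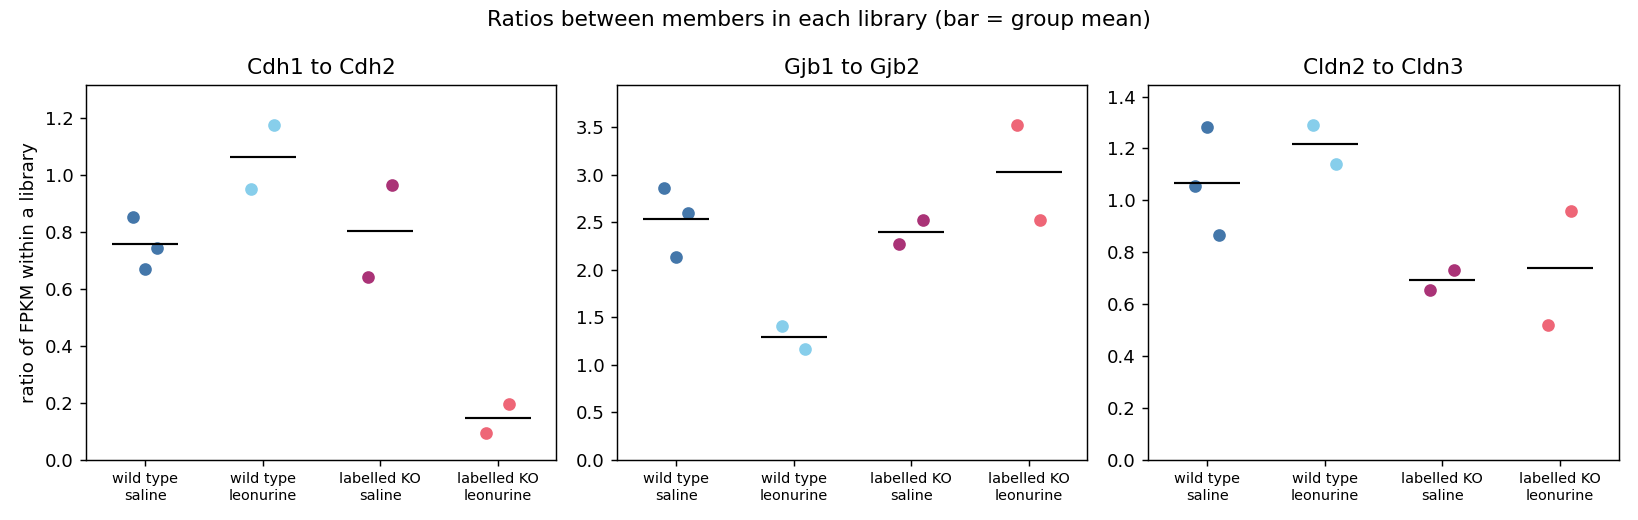
Ratios of FPKM between paired junction genes, on a linear axis from 0, with 1 point per library and a bar at each group mean. The ratio of Cdh1 to Cdh2 is lowest in the labelled knockouts given leonurine (0.0954 and 0.197), and that of Gjb1 to Gjb2 in wild type given leonurine (1.41 and 1.17).

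With leonurine in wild-type liver, Gjb1 and Ocln fell. Gjb1 fell by 0.71 ± 0.17 on the log2(FPKM + 1) scale (309.2 ± 25.2 FPKM, SD, n = 3, with saline and 189.1 ± 27.1, n = 2, with leonurine; limma, adjusted p = 0.0439). Ocln fell by 0.66 ± 0.15 (3.37 ± 0.588 and 1.75 ± 0.302 FPKM; limma, adjusted p = 0.0344). They were 2 of 9 members called, where 6.62% of all 10451 genes tested were called (1.9% higher and 4.72% lower). Over the 9 members 5 had groups that did not overlap, against 47% of all genes, and the median log2 difference was -0.07, against -0.12 over all genes tested. The next largest were Cdh2 at -0.59 and Cldn2 at 0.43 ± 0.17 (adjusted p = 0.171). Markers of neutrophils moved with the comparison, their sum being 63.7 to 149.8 FPKM with leonurine and 9.63 to 47.5 FPKM with saline. Summed hepatocyte markers were lower with leonurine. The general list, most of it Alb, was at 49622 to 65146 against 69565 to 76660 FPKM. The periportal list was at 1712 to 2185 against 3124 to 3304. The pericentral list, most of it Cyp2e1, was at 1488 to 2071 against 2627 to 3584. Fgb of the general list went the other way, at 8622 to 16575 with leonurine and 3332 to 3934 with saline. In the pericentral list Glul, Oat and Lgr5 had higher means with leonurine, and Cyp2e1, Axin2 and Slc1a2 lower means. The part of these markers in the result was not tested. The Gjb1 call held in 1 of 9 fits that each left out 1 library, the fit without leonurine replicate 1, and its adjusted p was 0.0539 to 0.207 in the other 8. The Ocln call ended without saline replicates 1, 2 or 3 (adjusted p = 0.0915, 0.0520 and 0.126) or leonurine replicate 2 (0.231), and without both labelled knockout leonurine libraries Gjb1 reached 0.0533 and Ocln 0.0419.

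With leonurine in the labelled knockouts, the values of Cdh1 above stood far from the rest. None of the other 9 passed the limma test (0 of 9), where 2.1% of all genes were called. An unadjusted p under 0.05 was reached by 2 of 9, against 22.4% of all genes. Cldn1 had the largest difference at -0.76 ± 0.23 (adjusted p = 0.115), and Gjb1 was at 0.21 (adjusted p = 0.525) and Ocln at -0.08 (adjusted p = 0.812). For 6 of 9 the groups did not overlap, against 49.4% of all genes, and the median was -0.15 against -0.19. Neutrophil markers summed to 25.1 to 59.6 FPKM with leonurine and 5.73 to 14.4 with saline. Lymphocyte markers summed to 3.14 to 4.84 against 1.01 to 1.65. Stellate markers were at 30.5 to 31.2 against 39.6 to 42.8, and cholangiocyte markers at 42.9 to 43.5 against 65.8 to 66.6. General hepatocyte and periportal sums were higher with leonurine, and endothelial, Kupffer cell and pericentral sums overlapped. The part of these in the result was not tested.

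The response to leonurine itself was compared between the genotypes. It differed by 0.93 ± 0.26 for Gjb1 (adjusted p = 0.0821, 95% interval 0.34 to 1.51), by -0.97 ± 0.31 for Cldn1 (adjusted p = 0.116) and by 0.59 ± 0.22 for Ocln (adjusted p = 0.168). None passed by limma (0 of 9), where 3.74% of all genes were called, and 3 of 9 reached an unadjusted p under 0.05, against 20.5% of all genes. So the falls of Gjb1 and Ocln in wild type were not shown to differ from the labelled knockout values. Without wild-type leonurine replicate 1 the Gjb1 difference was 1.07 and passed (adjusted p = 0.0306).

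Under saline, the labelled knockouts and wild type did not differ past the threshold in any of the 9 members by limma (0 of 9), where 0.0191% of all genes were called, and 2 of 9 reached an unadjusted p under 0.05, against 13.2% of all genes. Cldn1 was 0.65 ± 0.21 higher (adjusted p = 0.268) and Ocln 0.33 ± 0.15 higher (adjusted p = 0.379). Over the 9 members 4 had groups that did not overlap, against 38.7% of all genes.

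Under leonurine, Ocln and Gjb1 were higher and Cldn2 was lower in the labelled knockouts than in wild type. Ocln was 0.92 ± 0.16 higher (limma, adjusted p = 0.00903), Gjb1 0.74 ± 0.19 higher (adjusted p = 0.0349) while the difference for Cldn2 was -0.79 ± 0.19 (adjusted p = 0.0279). These were 3 of 9 called, where 12.2% of all genes were called (6.99% higher and 5.25% lower), and the groups of 5 of 9 did not overlap, against 52.1%. The comparison shares its wild-type libraries with that of leonurine and saline in wild type, so its values for Ocln and Gjb1 are not separate evidence. It also rests on the libraries without Y-linked transcripts, and Gjb1 and Cldn2 are both X-linked; the part of this in the result was not tested. Hepatocyte markers of all 3 lists summed higher in the labelled knockouts. The general list was at 83315 to 86796 against 49622 to 65146 FPKM. The periportal list was at 3422 to 3475 against 1712 to 2185 and the pericentral list at 2608 to 3020 against 1488 to 2071. Fgb of the general list went the other way, at 2918 to 5010 against 8622 to 16575 FPKM. In the pericentral list Oat, Axin2 and Lgr5 had lower means in the labelled knockouts, and Glul, Cyp2e1 and Slc1a2 higher means. Neutrophil markers summed lower, at 25.1 to 59.6 against 63.7 to 149.8 FPKM. The part of these in the result was not tested either. The Ocln call ended without wild-type leonurine replicate 2 (adjusted p = 0.0528) or labelled knockout leonurine replicate 1 (0.0558). The Cldn2 call ended without wild-type saline replicate 3 (0.0546), wild-type leonurine replicate 2 (0.119) or labelled knockout leonurine replicates 1 or 2 (0.108 and 0.0761). The Gjb1 call ended in 6 of 9 such fits, without any 1 of the wild-type saline replicates 1 (0.0637), 2 (0.0713) and 3 (0.0758), wild-type leonurine replicate 2 (0.112), or labelled knockout leonurine replicates 1 (0.138) and 2 (0.0804).

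**Figure D3:**
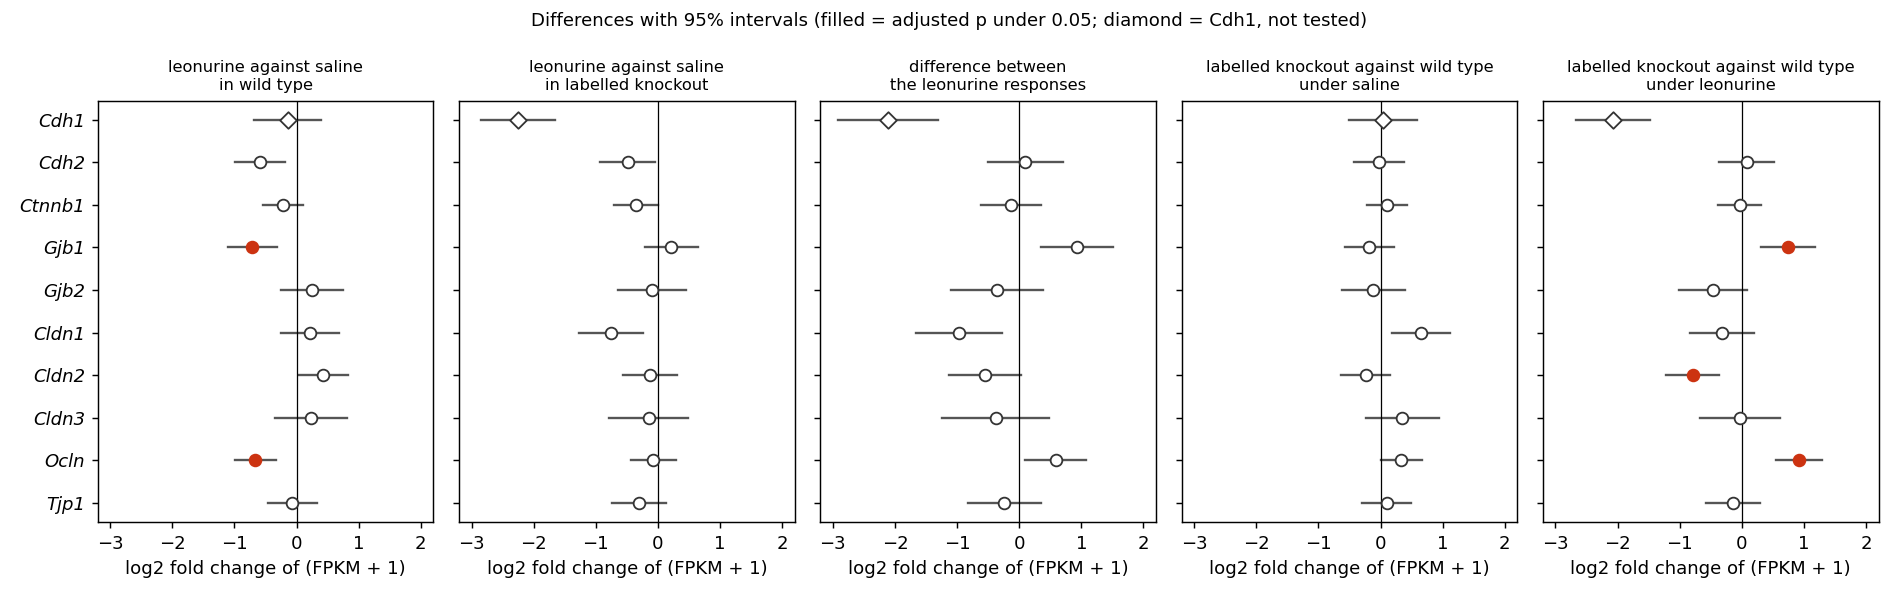
Log2 difference of each junction gene in the comparisons of groups, with its 95% interval from the limma fit; filled points passed the test and the diamond is Cdh1, which was not tested. Cdh1 lies at -2.25, -2.11 and -2.07 in the comparisons that hold the labelled knockouts given leonurine and at -0.14 and 0.04 in the others.

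The genes whose pattern was most like that of Cdh1 were sought among 10250 genes, by the mean absolute difference of log2(FPKM + 1) centred on each gene over the 9 libraries. These were the other tested genes, with symbols of predicted genes, clones and pseudogenes passed over. The 2 nearest were the Y-linked Eif2s3y (0.213) and Kdm5d (0.229), followed by the methyltransferase gene Etfbkmt (0.263), the thrombin receptor gene F2r (0.298) and the complement gene C6 (0.308). C6 had 6.47 and 14.4 FPKM in labelled knockout leonurine and 64.9 to 108.2 FPKM elsewhere. F2r had 3.45 and 4.69 FPKM there and 10.995 to 20.6 elsewhere, and Etfbkmt 15.7 and 12.2 there and 30.9 to 51.1 elsewhere. Among the other 9 members the nearest was Cdh2, at rank 1529 (0.638), and the farthest Ocln, at rank 9059 (0.891). Several of the further listed genes described below were nearer than Cdh2. The nearest were Cxadr at rank 50 (0.475) and the actin-linking vinculin gene Vcl at rank 84 (0.498). Next came Gja1 at rank 371 (0.568), and the last ahead of Cdh2 was Ppl at rank 1451 (0.635).

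**Figure D4:**
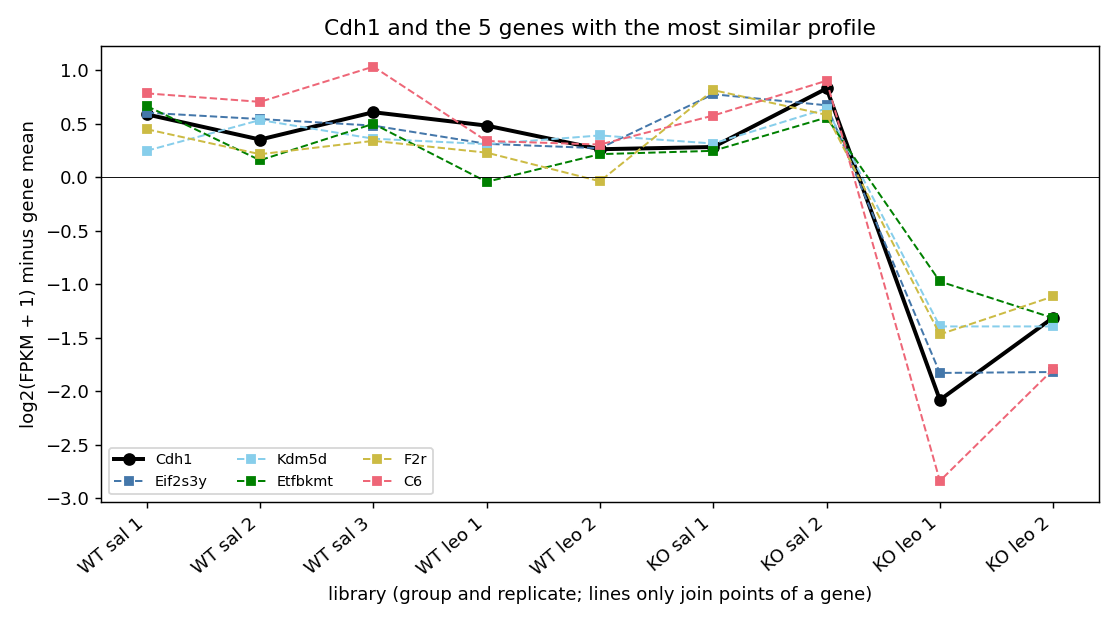
Log2(FPKM + 1) of Cdh1 and the 5 genes most like it, each centred on its own mean, with 1 point per gene and library and lines that only join the points of a gene. All 6 are lowest in the 2 labelled knockout libraries given leonurine.

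Other junction genes were read from lists of adherens, tight and gap junctions, desmosomes and cadherin repressors, 67 genes in all, of which 47 were tested. With leonurine in wild type, 2 of 47 rose and 2 fell, together 8.51% of the list, against 6.62% of all genes. Afdn, the afadin scaffold that joins nectins to actin, rose by 1.05 ± 0.19 (limma, adjusted p = 0.0147), from 8.79, 8.55 and 9.46 FPKM to 16.2 and 23.5. Cldn14, a sealing claudin, rose by 1.66 ± 0.33 (adjusted p = 0.0220), from 9.99, 4.44 and 6.15 FPKM to 31.7 and 16.5. The desmosomal cadherin Dsg2 fell by 0.81 ± 0.18 (adjusted p = 0.0344), from 26.9, 24.8 and 27.6 FPKM to 17.8 and 12.0. The adhesion molecule gene Nectin2 fell by 0.55 ± 0.14 (adjusted p = 0.0472), from 17.0, 14.4 and 15.0 FPKM to 10.5 and 9.96. Without wild-type leonurine replicate 2, none of Afdn (adjusted p = 0.106), Dsg2 (0.215) and Nectin2 (0.231) passed, and without replicate 1 Cldn14 (0.0596) and Nectin2 (0.0586) did not. Leaving out a saline library ended further calls. Without replicate 1 these were Dsg2 (0.0894) and Nectin2 (0.138). Without replicate 2 they were Afdn (0.0652), Cldn14 (0.0762), Dsg2 (0.0949) and Nectin2 (0.121), and without replicate 3 Afdn (0.0570), Cldn14 (0.0781), Dsg2 (0.119) and Nectin2 (0.138). Nectin2 also ended without labelled knockout saline replicate 1 (0.0559) or 2 (0.0556).

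In the labelled knockouts 0 of 47 were called with leonurine by limma, against 2.1% of all genes, and 10 of 47 (21.3%) reached an unadjusted p under 0.05, against 22.4%. Under saline 0 of 47 were called, against 0.0191%, and 2 of 47 (4.26%) reached an unadjusted p under 0.05, against 13.2%. Between the genotypes under leonurine 3 of 47 (6.38%) were lower in the labelled knockouts and 0 were higher, against 12.2% of all genes called. Afdn was at 6.33 and 8.53 FPKM in the labelled knockouts (log2 difference of -1.30 ± 0.20, adjusted p = 0.00589) and Cldn14 at 5.06 and 6.35 (-1.84 ± 0.36, adjusted p = 0.0129). Cxadr, an adhesion receptor found at tight junctions, was at 6.70 and 7.28 FPKM against 13.4 and 14.0 (-0.88 ± 0.20, adjusted p = 0.0230). The Cldn14 call ended without labelled knockout leonurine replicate 1 (0.0839), and the Cxadr call without either labelled knockout leonurine replicate 1 (0.115) or 2 (0.0524) or wild-type leonurine replicate 2 (0.0942). The leonurine response itself differed for 1 of 47 (2.13%), Afdn, against 3.74% of all genes. Cadherin repressors were low, 4 of 7 passing the filter, and 0 of 4 were called by limma in any of the 5 comparisons. Snai2 (Slug) was at 5.34 and 1.99 FPKM in labelled knockout leonurine and 0.813 to 3.32 elsewhere (difference from wild type under leonurine 1.18 ± 0.41, adjusted p = 0.0927), and its lower library there lay within the range of the other groups. Of the other tested repressors, Snai1 was at 0.250 and 0.960 FPKM in labelled knockout leonurine and 0.537 to 1.56 elsewhere. Zeb2 was at 1.24 and 2.12 FPKM in that group against 1.17 to 2.41, and Tcf3 at 6.24 and 4.05 against 3.51 to 5.43. Zeb1 (0.478 to 0.685 FPKM), Twist1 (0.086 to 0.543) and Twist2 (0 to 0.135) were too low to be tested.

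Markers of other cells were set beside Cdh1. The cholangiocyte list summed to 42.9 and 43.5 FPKM in labelled knockout leonurine and 59.2 to 152.6 elsewhere, most of it Spp1 (40.6 to 146.2 FPKM). Of the defining bile duct markers, Krt19 was at 0.572 and 0.360 FPKM in labelled knockout leonurine and 0.344 to 1.86 elsewhere. Krt7 was at 0.238 and 0.118 FPKM against 0.194 to 0.838. Epcam was at 0.759 and 0.104 against 0 to 0.686, and Cftr at 0.013 and 0.034 against 0.004 to 0.103. Each of these markers overlapped the other libraries. Sox9, also a cholangiocyte marker, was at 1.34 to 1.91 FPKM in wild-type saline, 3.39 and 5.85 in wild-type leonurine, 1.14 and 2.02 in labelled knockout saline and 0.703 and 1.33 in labelled knockout leonurine. It rose by 1.08 ± 0.24 with leonurine in wild type (limma, adjusted p = 0.0308) and was lower in the labelled knockouts than in wild type under leonurine (-1.46 ± 0.26, adjusted p = 0.00923). The first call ended without wild-type saline replicates 1 (0.0552), 2 (0.102) or 3 (0.106) or leonurine replicate 2 (0.240), and the second without wild-type leonurine replicate 2 (0.0524) or labelled knockout leonurine replicate 1 (0.0727). The endothelial sum was 86.9 to 100.8 FPKM against 77.8 to 97.6, and the stellate sum 30.5 to 31.2 against 25.8 to 48.6. The Kupffer cell sum was 217.9 to 281.5 FPKM against 138.6 to 259.8, and the lymphocyte sum, whose 6 genes all fell below the filter, 3.14 to 4.84 against 0.256 to 2.10. The neutrophil sum was 25.1 to 59.6 FPKM against 5.73 to 149.8. The general hepatocyte sum was 83315 to 86796 FPKM against 49622 to 76660, the periportal sum 3422 to 3475 against 1712 to 3304 and the pericentral sum 2608 to 3020 against 1488 to 3774. In the 2 libraries where Cdh1 was lowest, the general hepatocyte, periportal and lymphocyte sums were thus above all other libraries. The cholangiocyte sum was below them. Of the general list only Alb (65050 and 67808 FPKM against 26493 to 60071) was above all others in both. Of the periportal list Hal, Ass1 and Gls2 were, while Sds, Pck1 and Cyp2f2 overlapped the others. Of the cholangiocyte list only Spp1 was below all others in both. The part of these cell types in the level of Cdh1 was not tested.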

How the data were processed

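Expression came as FPKM, which the authors deposited in 1 table of 16857 genes and 9 libraries. Of tools, the submitters' processing notes list R (3.2.0), HTSeq, HISAT2 and fastp, with build mm10; strand use and annotation are not given in the sources used here. Columns were matched to libraries by the RNA number in the labels, and 0 numeric columns were left over. Because the values keep many decimals, their ratios gave back whole fragments for 16857 of 16857 genes at a tolerance of 0.0001, used only to describe depth.

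Differences were tested with limma 3.58.1 in R 4.3.3 on log2(FPKM + 1), which understates changes of low genes, with 1 mean per group over all 9 libraries (5 residual degrees of freedom, mean trend). Genes at FPKM of at least 1 in at least 2 libraries were tested (10451, with all 10 members), and Benjamini-Hochberg adjusted p under 0.05 was a call. The fit and the fragment step were tested on simulated data.

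The members and lists were chosen with earlier results of these data known. All members are named, with up to 4 genes of a list by smallest p and the 5 genes most like Cdh1. Alternatives changed the pseudocount (0.1), the filter (none, or mean FPKM of at least 5), the scaling, the replicate block, the libraries fitted, array weights and each library in turn.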

Additional observations from a re-analysis of the deposited data

Results flagged for a closer look

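The leonurine response of Afdn, which encodes a scaffold of adherens junctions, differed between the genotypes by a test of the difference itself. It was 1.05 in wild type, and the labelled knockout response was -1.26 ± 0.28 away from it on the log2(FPKM + 1) scale (limma, adjusted p = 0.0413). The levels were 8.79, 8.55 and 9.46 FPKM in wild-type saline, 16.2 and 23.5 in wild-type leonurine, 7.97 and 9.44 in labelled knockout saline and 6.33 and 8.53 in labelled knockout leonurine. Afdn was the 1 of 47 further listed genes (2.13%) that passed this test, against 3.74% of all genes. The labelled knockout response rests on the 2 libraries without Y-linked transcripts, and the part of that in the result was not tested. The call held in 2 of 9 fits that left out 1 library each, with an adjusted p of 0.0123 to 0.111 over them, and ended without any 1 of the wild-type saline libraries 1, 2 or 3 (0.0915, 0.111 and 0.0862), wild-type leonurine replicate 2 (0.0888), labelled knockout saline replicate 1 or 2 (0.0859 and 0.0959) or labelled knockout leonurine replicate 1 (0.105). It also ended with no filter on low values (0.0947), median-ratio scaling (0.0674), quantile normalization (0.0748), the replicate block (0.0702) and array weights (0.0589).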

How the results depend on the processing

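No direction reversed for a result past the threshold under the alternatives run. The count of 2 of 9 members called with leonurine in wild type went to 0 with no filter on low values, with the replicate block and with only the groups compared, and to 1 with mean FPKM of at least 5, median-ratio scaling, quantile normalization, array weights, or without both labelled knockout leonurine libraries (0 to 3 leaving out 1 library). The count of 3 of 9 between genotypes under leonurine went to 0 with only the groups compared and to 1 with array weights (0 to 3 leaving out 1). The count of 0 for the difference of responses went to 1 with median-ratio scaling (0 to 1 leaving out 1), and the other 2 counts of 0 stayed at 0 in every alternative run. In wild type it was Gjb1 that ended with median-ratio scaling (limma, adjusted p = 0.0625) and quantile normalization (log2 difference of -0.42, 0.115), and Ocln with array weights (0.0617). With mean FPKM of at least 5 Ocln (mean 3.44) was left out of the fit, and Gjb1 stayed called in wild type. The Gjb1 call between genotypes under leonurine also ended with quantile normalization (log2 difference of 0.38, limma, adjusted p = 0.137). With leonurine in wild type, the calls of Afdn, Cldn14, Dsg2 and Nectin2 ended with no filter on low values (0.0547, 0.0840, 0.0737 and 0.0650). They also ended with the replicate block (0.0553, 0.0650, 0.0790 and 0.135). The causes were not tested. Adipor2 passed its exact permutation test with median-ratio scaling (-0.58, p = 0.0317) and quantile normalization (-0.74, p = 0.0159), and leaving out 1 library gave -0.65 to -0.44, passing without wild-type leonurine replicate 1 (p = 0.0286) or labelled knockout leonurine replicate 2 (p = 0.0357). With the replicate block Gjb1 had an adjusted p by limma of 0.135 and Ocln of 0.120 in wild type, and Gjb1 of 0.0606 between genotypes under leonurine. The labels do not say that equal replicate numbers pair libraries. Deviations from group means correlated at 0.0200 to 0.154 over the 12 same-numbered pairs, 3 of them over 0.1. Pairs of different numbers were not set beside them. In groups of 2 the deviations mirror each other, so these values are not all separate. Over all genes, the count called moved from 692 to between 75 and 1327 with leonurine in wild type, from 219 to between 91 and 322 in the labelled knockouts, from 391 to between 102 and 812 for the difference, from 2 to between 0 and 81 under saline and from 1280 to between 309 and 1691 under leonurine. Median-ratio scaling moved the median gene with leonurine from -0.12 to 0.00 in wild type and from -0.19 to -0.02 in the labelled knockouts, and the share of calls that were higher from 28.8% to 45.1% and from 28.8% to 56.0%. The log2 difference of Cdh1 with leonurine in the labelled knockouts lay between -2.94 (pseudocount 0.1) and -1.87. With leonurine the sign turned under both median-ratio scaling and quantile normalization for Tjp1 in wild type and for Gjb2, Cldn2 and Ocln in the labelled knockouts. It turned under the first alone for Cldn3 in the labelled knockouts, and under the second alone for Ctnnb1 in wild type and between genotypes under saline. None of these was called. Depth was at least 113 fragments for every member in every library.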
